A study of Mus musculus with 6 samples.

Results

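The genes described here encode 9 surface proteins by which satellite cells, the stem cells of skeletal muscle, are recognised or held in their niche: Chodl, Calcr, Cd34, Vcam1, Ncam1, Cxcr4, Cdh15, Sdc3 and Sdc4. They were taken by row name from the deposited count table; all 9 were among its 45527 named rows and all 9 were among the 16252 genes that passed the filter on low counts. RNA was sequenced from 3 libraries labelled Paxbp1-iKO (genotype Pax7creER:Paxbp1flox/flox:R26R-YFP, both copies of Paxbp1 floxed) and 3 control libraries (Pax7creER:Paxbp1flox/+:R26R-YFP, 1 copy floxed and 1 not). Both groups thus carried a Cre recombinase expressed from Pax7, inducible in the creER form, and a YFP reporter at the R26R locus. Hindlimb muscle was injured with cardiotoxin (30 µl), which destroys muscle fibres, and YFP-positive cells were sorted 24 h later in both groups. Because Cre was driven by Pax7, deletion and label were limited to cells that expressed Pax7 when Cre was active. The controls carried Cre and a floxed allele too, so they are not wild type. The design names 3 pairs of mice without saying which library came from which mouse; a p-value here reflects the variation among these 6 libraries, part of which may be technical. Ages were not stated.

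A satellite cell lies between a muscle fibre and its basal lamina, and its surface proteins serve both as tags for sorting and as working receptors. Vcam1, Ncam1 and the cadherin Cdh15 are adhesion proteins; Calcr and Cxcr4 are G protein-coupled receptors for calcitonin and for the chemokine Cxcl12; Sdc3 and Sdc4 are syndecans, membrane proteins whose heparan sulphate chains bind growth factors. Cd34 is a sialomucin, a heavily glycosylated surface protein, and Chodl is a membrane protein with a C-type lectin domain. In mouse muscle Calcr is known to hold satellite cells in quiescence and is normally lost as they activate, whereas Ncam1 is kept by cells committed to the muscle lineage.

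The libraries held 23327359 to 28050748 counts. Paxbp1 itself stood higher where the label says Paxbp1-iKO, with 2745, 3162 and 3125 counts, against 1583, 1917 and 1592 counts in the controls (log2 fold change 0.68 ± 0.13 SE, adjusted p = 0.00954). That goes against the label of a knockout, and counts over the whole gene do not show whether a floxed part was deleted. The groups are therefore called iKO-labelled and control, and each direction given rests on that labelling. Fold changes are log2 of iKO-labelled over control with their standard error, and adjusted p-values are from edgeR's quasi-likelihood test, adjusted over all 16252 genes, with 0.05 as the threshold. Of these genes 3315 changed (20.4%), 1324 of them higher (8.15%) and 1991 lower (12.3%). Scaling by library totals shifted the median gene by 0.13 (log2), and then 1920 were higher and 1445 lower, so that 57.1% of the calls were higher, against 39.9%.

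Among the 9 surface genes, 5 rose (Chodl, Calcr, Vcam1, Cdh15 and Sdc4), Ncam1 fell, and Cd34, Cxcr4 and Sdc3 did not pass the test. That is 6 of 9 called (66.7%, against 20.4% of all genes), with a median log2 fold change of 0.43, against 0.02 over all tested genes. The iKO-labelled and control libraries did not overlap for 6 of the 9, against 39.8% of all tested genes. The 9 were chosen with earlier results of these data known, and the shares over all genes include weakly expressed ones. They are thus not matched to the members. In bulk RNA, fewer cells of a type and less RNA per cell cannot be told apart, and messenger RNA levels do not give the amount of protein at the surface.

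**Figure D1:**
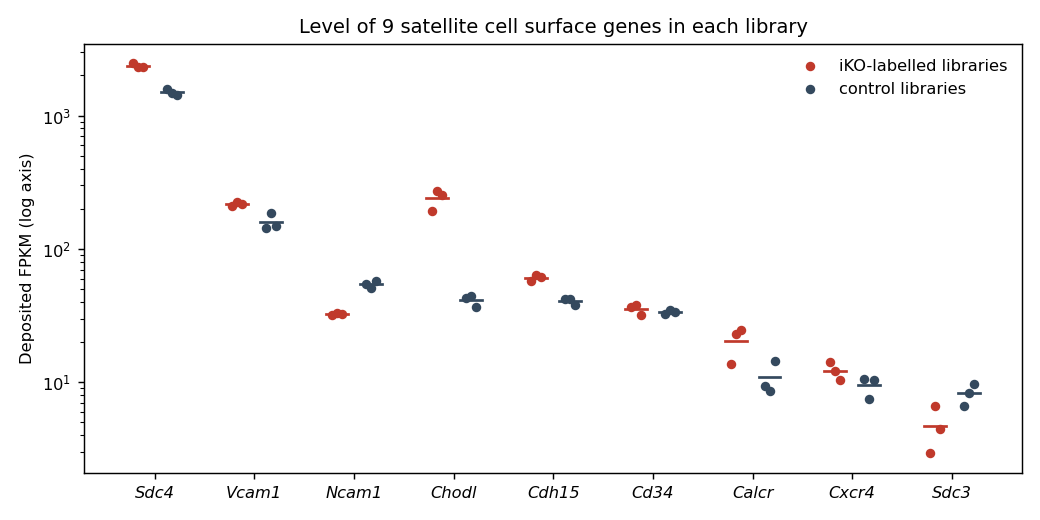
Deposited FPKM (fragments per unit of gene length and sequencing depth, log axis) of the 9 surface genes, 1 point per library and a bar at each group mean, with the iKO-labelled libraries left of the controls. Sdc4 is highest in both groups, Chodl, Cdh15, Vcam1 and Sdc4 are higher in every iKO-labelled library, and Ncam1 is lower in every one.

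Chodl, the lectin-domain protein, showed the largest difference of the 9. The gene spans positions 78930948 to 78951733 on the plus strand of chromosome 16 (GRCm38, ENSMUSG00000022860.15). It stood at 191, 270.3 and 255 FPKM in the iKO-labelled libraries, against 43.1, 44.7 and 36.5 FPKM in the controls. Every iKO-labelled library was thus far above every control, and the spread within each group was small beside the gap. The fitted change was 2.51 ± 0.15 (adjusted p = 6.9e-05), a 5.7-fold rise resting on 3701 to 30712 counts per library, and it lay between 2.41 and 2.65 with any 1 library left out. Its size placed it at position 303 among the changed genes. The other 8 genes lie on chromosome 6 (Calcr, 3685680 to 3764714, minus strand), chromosome 1 (Cd34, 194938819 to 194961279, plus, and Cxcr4, 128588199 to 128592293, minus), chromosome 3 (Vcam1, 116109949 to 116129688, minus), chromosome 9 (Ncam1, 49502136 to 49798925, minus), chromosome 8 (Cdh15, 122847966 to 122867397, plus), chromosome 4 (Sdc3, 130792537 to 130826319, plus) and chromosome 2 (Sdc4, 164424247 to 164443887, minus). Counts are over whole genes, and without strand, reads from antisense genes that share exon bases with Cd34, Vcam1, Ncam1 and Sdc3 cannot be told apart from theirs. In FPKM Chodl was the gene at position 231 of all tested genes in the iKO-labelled group and at position 1626 in the controls.

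The bases before the RefSeq start of Chodl and of Sdc4, the risers with the smallest adjusted p, are shown because both genes rose while only the Chodl window holds matches to the motif searched. Both are 250 bases, 5′ to 3′ on the strand of the gene (build GRCm38.p6): chr16:78930698-78930947 on the plus strand for Chodl and chr2:164443189-164443438 on the minus strand for Sdc4. The Sdc4 window lies inside the GENCODE span of the gene, which runs to 164443887, though in none of its annotated exons. The Chodl window lies before its GENCODE start at 78930948, so the windows are not placed alike. Capitals mark matches to the E-box CANNTG, the motif bound by Myod1 and other basic helix-loop-helix factors, searched on both strands.
Chodl: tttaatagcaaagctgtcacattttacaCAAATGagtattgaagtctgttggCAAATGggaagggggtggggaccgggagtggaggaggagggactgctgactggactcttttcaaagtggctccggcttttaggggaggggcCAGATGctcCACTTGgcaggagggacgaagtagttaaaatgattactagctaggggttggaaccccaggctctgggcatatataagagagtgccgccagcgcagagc
Sdc4: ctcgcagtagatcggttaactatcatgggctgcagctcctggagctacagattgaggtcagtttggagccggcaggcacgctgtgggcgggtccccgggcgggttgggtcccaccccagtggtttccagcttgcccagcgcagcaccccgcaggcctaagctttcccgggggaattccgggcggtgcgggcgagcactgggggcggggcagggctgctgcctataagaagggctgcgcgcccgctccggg
The Chodl window held 4 such matches, the first base of each at -222, -198, -107 and -98 from the start, and the Sdc4 window held 0. CANNTG occurs in 66.2% of 32851 promoter windows of this length, so a match is common. The narrower E-box CAGCTG (in 13% of the windows, all of which also match CANNTG) and GTGGGAA, the core site of the Notch effector RBPJ (in 5.42%, both strands), were in neither. Windows were at hand for 7 of the 9 genes; besides Chodl, the one of Cdh15, all 250 bases of which lie in annotated exons of the gene, held 3 E-boxes, and 1 of the 2 of Calcr held 1, and those of Cd34, Cxcr4 and Sdc3 held 0. A match is a run of letters in a window and says nothing of binding.

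Cd34, also a surface glycoprotein and one by which quiescent satellite cells are enriched, did not differ detectably. It had 36.7, 37.8 and 32.0 FPKM in the iKO-labelled libraries, against 32.3, 34.9 and 34.0 FPKM in the controls. The groups overlapped, with iKO 3 below every control. The change was 0.06 ± 0.084 (adjusted p = 0.688), and its 95% confidence interval, -0.13 to 0.25, lies below the changes fitted for Chodl, Sdc4 and Cdh15. Cd34 is also made by endothelial and fibro-adipogenic cells. The 10 endothelial markers summed to 148 to 179 CPM (counts scaled to library size) in the iKO-labelled libraries and 89.5 to 309.9 CPM in the controls, of which control 1 was the highest. Their part in the level of Cd34 was not tested.

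Of the adhesion proteins, Vcam1 and Cdh15 rose and Ncam1 fell. Vcam1, an immunoglobulin-family protein that binds α4β1 integrin, had 209.8, 224 and 217 FPKM in the iKO-labelled libraries, against 143, 186 and 148 FPKM in the controls. The groups did not overlap, but control 2 came close to the iKO-labelled libraries. The change was 0.43 ± 0.097 (adjusted p = 0.0168). The call ended without control 3 (adjusted p = 0.0582), iKO 2 (0.0691) or iKO 3 (0.0587), where the log2 fold change was 0.39, 0.40 and 0.43. Cdh15, M-cadherin, which joins satellite cells to the fibre and myoblasts to each other, had 57.4, 63.9 and 61.2 FPKM in the iKO-labelled libraries, against 42.0, 42.3 and 37.9 FPKM in the controls. All 3 iKO-labelled libraries were above all 3 controls (0.56 ± 0.090, adjusted p = 0.00409, 1.48-fold), and the call held whichever library was left out. Ncam1, the neural cell adhesion molecule, had 31.9, 33.1 and 32.6 FPKM in the iKO-labelled libraries, against 54.7, 50.9 and 57.2 FPKM in the controls. It was the only one of the 9 to fall past the threshold (-0.75 ± 0.071, adjusted p = 4.4e-04, 1.69-fold lower), and its iKO-labelled libraries were the closest to each other of any of the 9 genes (coefficient of variation 1.9%). The 2 immunoglobulin-family proteins thus moved in opposite directions.

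The G protein-coupled receptors were less certain. Calcr, the calcitonin receptor, had 13.7, 22.8 and 24.7 FPKM in the iKO-labelled libraries, against 9.47, 8.63 and 14.5 FPKM in the controls. Control 3 lay above iKO 1, so the groups overlapped. The change, 0.90 ± 0.27, only just passed the test (adjusted p = 0.0483), with a 95% confidence interval of 0.28 to 1.51. It was not called when control 1 (adjusted p = 0.13), control 2 (0.135), iKO 2 (0.149) or iKO 3 (0.166) was left out, and the log2 fold change was then 0.81, 0.75, 0.80 and 0.74. Cxcr4, the receptor by which cells move toward Cxcl12, had 14.1, 12.1 and 10.4 FPKM in the iKO-labelled libraries, against 10.6, 7.44 and 10.5 FPKM in the controls. Its groups overlapped at iKO 3, and with 355 to 737 counts per library it had the fewest counts of the 9 in every library but iKO 1, where Sdc3 had fewer. The change was 0.35 ± 0.21 (adjusted p = 0.31) with a 95% confidence interval of -0.14 to 0.83, a range that holds both 0 and the change of Sdc4. It was 0.20 without control 2 and 0.23 without iKO 1.

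The syndecans differed from each other in level and in direction. Sdc4, the syndecan that recruits protein kinase C to focal adhesions, had 2457, 2298 and 2322 FPKM in the iKO-labelled libraries, against 1584, 1488 and 1423 FPKM in the controls. The groups were far apart for their spread (0.64 ± 0.058, adjusted p = 4.1e-04, 1.56-fold). By FPKM Sdc4 stood at position 9 of all tested genes in the iKO-labelled group and at position 22 in the controls. Sdc3, a syndecan with a long ectodomain, had 2.93, 6.69 and 4.44 FPKM in the iKO-labelled libraries, against 6.70, 8.37 and 9.79 FPKM in the controls. Its iKO-labelled libraries were all below the controls, but iKO 2 and control 1 were nearly level, and the values within the iKO-labelled group varied by 40.4% (coefficient of variation). The difference of -0.84 ± 0.29 missed the threshold (adjusted p = 0.0805, unadjusted p = 0.0199; 95% confidence interval -1.50 to -0.17). It passed with DESeq2 (adjusted p = 0.0139), and without iKO 2 it was -1.19 (adjusted p = 0.0269).

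**Figure D2:**
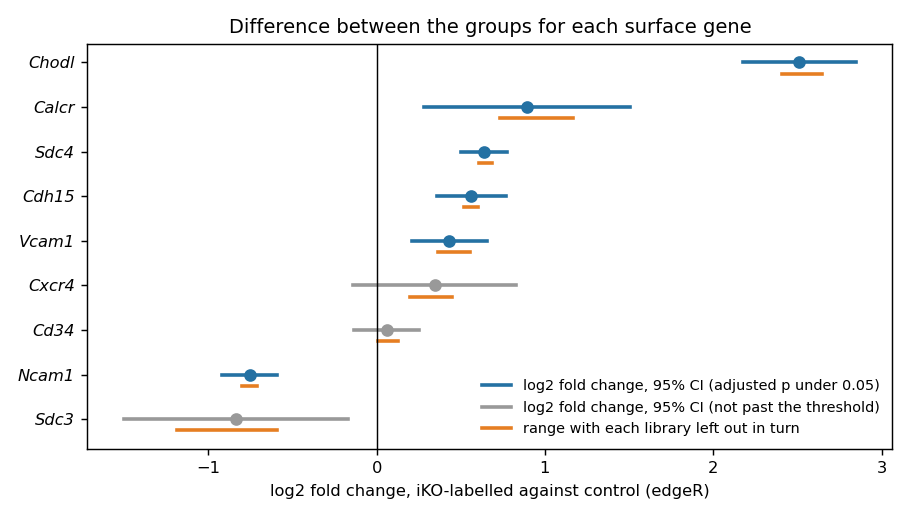
Log2 fold change of each surface gene, iKO-labelled over control, with its 95% confidence interval (blue past the threshold, grey not) and, in orange, the range of the estimate with each library left out in turn. Chodl stands at 2.51, Ncam1 at -0.75 and Sdc3 at -0.84, and the intervals of Cd34 and Cxcr4 cross 0.

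Set in order of FPKM, a scale that allows genes to be compared, the iKO-labelled group ran Sdc4 (2359 ± 85.5, SD, n = 3), Chodl (239 ± 41.9), Vcam1 (217 ± 7.18), Cdh15 (60.8 ± 3.30), Cd34 (35.5 ± 3.12), Ncam1 (32.5 ± 0.61), Calcr (20.4 ± 5.87), Cxcr4 (12.2 ± 1.86) and Sdc3 (4.69 ± 1.89). The ranges of Chodl and Vcam1, of Cd34 and Ncam1, and of Calcr and Cxcr4 overlapped, so these neighbours are not apart. In the controls the order was Sdc4 (1498 ± 81.0), Vcam1 (159 ± 23.5), Ncam1 (54.3 ± 3.19), Chodl (41.4 ± 4.36), Cdh15 (40.7 ± 2.46), Cd34 (33.7 ± 1.29), Calcr (10.9 ± 3.19), Cxcr4 (9.50 ± 1.78) and Sdc3 (8.29 ± 1.55). Here Chodl and Cdh15, Calcr and Cxcr4, and Cxcr4 and Sdc3 overlapped. Ncam1 lay above Cdh15 in every control library and below it in every iKO-labelled library.

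The partners of these proteins were examined in 7 further lists, which hold 124 genes, 119 of them tested. Of these, 11 rose and 29 fell (33.6% called, against 20.4% of all genes), with a median log2 fold change of -0.24. The other 79 did not pass the test. Higher genes made up 27.5% of these calls, but 41.9% when scaled by library totals, where 13 were higher and 18 lower. Under that scaling 11 of the 29 fallers were no longer called: Cxcl12, Itgb1, Col5a2, Col5a3, Fzd7, Met, Extl2, Ndst1, Gnai2, Prkar2a and Dag1. Among 24 tested ligands and membrane partners, 2 rose and 8 fell (median -0.46), beside 8.15% higher and 12.3% lower over all tested genes.

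For the chemokine pair, Cxcl12, the ligand of Cxcr4, had 8.35, 10.01 and 7.86 FPKM in the iKO-labelled libraries, against 14.3, 12.7 and 11.1 FPKM in the controls (-0.55 ± 0.14, adjusted p = 0.0267). Ackr3, a scavenging receptor that binds the same ligand, fell too (-0.57 ± 0.12, adjusted p = 0.0156). Both were thus lower where Cxcr4 itself did not pass the test. Cxcl12 lost its call without control 1, control 2, iKO 1 or iKO 3 (highest adjusted p 0.0951). Ackr3 lost it without iKO 1 or iKO 3 (highest adjusted p 0.0636). For Vcam1, the α4 integrin gene Itga4 was barely present, with 16, 30 and 26 counts in the iKO-labelled libraries, against 0, 16 and 0 counts in the controls, whereas the shared β1 chain Itgb1 was abundant (188 FPKM in the iKO-labelled group, 231 in the controls) and fell by 0.31 ± 0.076 on the log2 scale (adjusted p = 0.0223, a call lost without control 1, control 3 or iKO 3, highest adjusted p 0.0756). Scaled by library totals, the change of Itgb1 was -0.18 (adjusted p = 0.148). For Calcr, collagen V is a ligand made by satellite cells themselves. Col5a2 (-0.58 ± 0.14, adjusted p = 0.0216) and Col5a3 (-0.61 ± 0.16, adjusted p = 0.0322) fell and Col5a1 stood at -0.69 ± 0.43 (adjusted p = 0.314). Col5a1 moved to -0.30 without iKO 1 and -1.13 without iKO 2, and passed the threshold with no count filter (adjusted p = 0.0343). Col5a2 lost its call without control 1, control 3, iKO 1 or iKO 3 (highest adjusted p 0.0755). Col5a3 kept it only without control 2 (highest adjusted p 0.0986). The receptor activity-modifying genes Ramp1, Ramp2 and Ramp3, whose products turn Calcr into an amylin receptor, did not pass the test. Ramp2 was the most abundant of them, at 8.69 FPKM in the iKO-labelled group and 6.66 FPKM in the controls.

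Among the G protein and cyclic AMP genes downstream of Calcr and Cxcr4, 1 of 21 rose and 5 fell (median -0.12). For all tested genes the shares were 8.15% higher and 12.3% lower. The riser was Adcy7, an adenylyl cyclase, at 102 ± 1.08 CPM in the iKO-labelled libraries and 56.0 ± 1.18 CPM in the controls (0.87 ± 0.092, adjusted p = 6.6e-04). Grk6, a receptor kinase that desensitises G protein-coupled receptors, fell by 1.83 ± 0.20 on the log2 scale (adjusted p = 7.9e-04). Prkar1a, a regulatory subunit of protein kinase A, fell by 0.41 ± 0.064 (adjusted p = 0.00393), and its catalytic subunit Prkaca fell by 1.20 ± 0.25 (adjusted p = 0.0121), a call lost without iKO 2 or iKO 3 (highest adjusted p 0.0567). Prkar2a, a second regulatory subunit (-0.55 ± 0.14, adjusted p = 0.0244), and Gnai2, the inhibitory G protein subunit used by Cxcr4 (-0.51 ± 0.12, adjusted p = 0.0193), fell too. Prkar2a was not called without control 2, iKO 2 or iKO 3 (highest adjusted p 0.0807), nor Gnai2 without control 2, control 3, iKO 1 or iKO 2 (highest adjusted p 0.0739).

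Of 10 tested genes of polysialylation and shedding, 1 rose and 4 fell (median -0.41), beside 8.15% higher and 12.3% lower over all tested genes. St8sia2, which adds polysialic acid to Ncam1, had 2.88, 2.52 and 1.75 FPKM in the iKO-labelled libraries, against 5.37, 3.60 and 3.79 FPKM in the controls; the groups did not overlap, but the difference of -0.85 ± 0.26 just missed the threshold (adjusted p = 0.0503). St8sia2 was called under 6 of the 15 alternatives, DESeq2, no count filter, the 5 CPM filter, both filtered limma fits and the replicate block (lowest adjusted p 0.0127). St8sia4, another gene of polysialylation, had 105, 91 and 23 counts in the iKO-labelled libraries, against 115, 60 and 0 counts in the controls. Its change of 0.05 ± 1.25 (adjusted p = 0.982) is too imprecise to give a direction. The sheddases Adam10 (-0.70 ± 0.094, adjusted p = 0.00196) and Adam9 (-1.27 ± 0.14, adjusted p = 8.9e-04) fell. Adam17 fell by 0.55 ± 0.12 (adjusted p = 0.013), a call lost without control 2, control 3 or iKO 3 (highest adjusted p 0.0552). Mmp2, a gelatinase of the matrix, went the other way, with 77.0, 85.8 and 71.4 FPKM in the iKO-labelled libraries, against 29.7, 15.6 and 22.3 FPKM in the controls (1.78 ± 0.22, adjusted p = 0.00126).

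The heparan sulphate chains of the syndecans bind growth factors, and the calls among the enzymes that make and edit them went both ways. Of 19 tested, 2 rose and 4 fell (median -0.29), beside 8.15% higher and 12.3% lower over all tested genes. The fallers were B4galt7 and B3galt6, which build the linker between protein and chain, Extl2, which acts at the start of the chain, and Ndst1, which starts its sulphation. B4galt7 had 1.89, 1.68 and 2.44 FPKM in the iKO-labelled libraries, against 6.998, 5.65 and 5.94 FPKM in the controls (-1.65 ± 0.23, adjusted p = 0.00241), and this call held with any library left out. Those of B3galt6 (-0.98 ± 0.23), Extl2 (-1.44 ± 0.42) and Ndst1 (-0.81 ± 0.21) did not: B3galt6 was lost without control 1, control 3, iKO 2 or iKO 3, Extl2 without any library but iKO 3, and Ndst1 without control 1, control 3, iKO 1 or iKO 2 (highest adjusted p 0.136). The risers were the sulphatases Sulf1 (0.50 ± 0.12, adjusted p = 0.0234) and Sulf2 (1.17 ± 0.34, adjusted p = 0.046), which remove sulphate from finished chains. Sulf1 was lost without control 2, control 3, iKO 2 or iKO 3 (highest adjusted p 0.0876) and Sulf2 in all 6 leave-one-out fits (highest adjusted p 0.173).

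Among the other membrane partners, the receptors Fgfr4 and Ptprz1 rose and Fgfr1, Met and Fzd7 fell. Fgfr1, a receptor for fibroblast growth factors, had 73.8, 103 and 105 FPKM in the iKO-labelled libraries, against 216, 199 and 189 FPKM in the controls (-1.12 ± 0.13, adjusted p = 0.00117). Fgfr4, its relative, had 52.4, 68.6 and 57.1 FPKM in the iKO-labelled libraries, against 20.2, 28.8 and 25.4 FPKM in the controls (1.24 ± 0.15, adjusted p = 0.00117). These 2 receptors moved in opposite directions by about the same amount, and both calls held with any library left out. Met, the receptor for hepatocyte growth factor, fell by 0.59 ± 0.17 (adjusted p = 0.0445), a call that ended on leaving out control 1, control 3, iKO 2 or iKO 3 (highest adjusted p 0.153). Ptprz1, a receptor-type phosphatase that binds pleiotrophin, rose by 1.77 ± 0.46 (adjusted p = 0.0311), not called without control 2, control 3, iKO 2 or iKO 3 (highest adjusted p 0.112). The frizzled receptor Fzd7, which forms a complex with Sdc4 and fibronectin, was at 1.58 FPKM in the iKO-labelled group and 2.92 FPKM in the controls (-0.90 ± 0.24, adjusted p = 0.0328), a call lost in all 6 leave-one-out fits (highest adjusted p 0.0961).

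**Figure D3:**
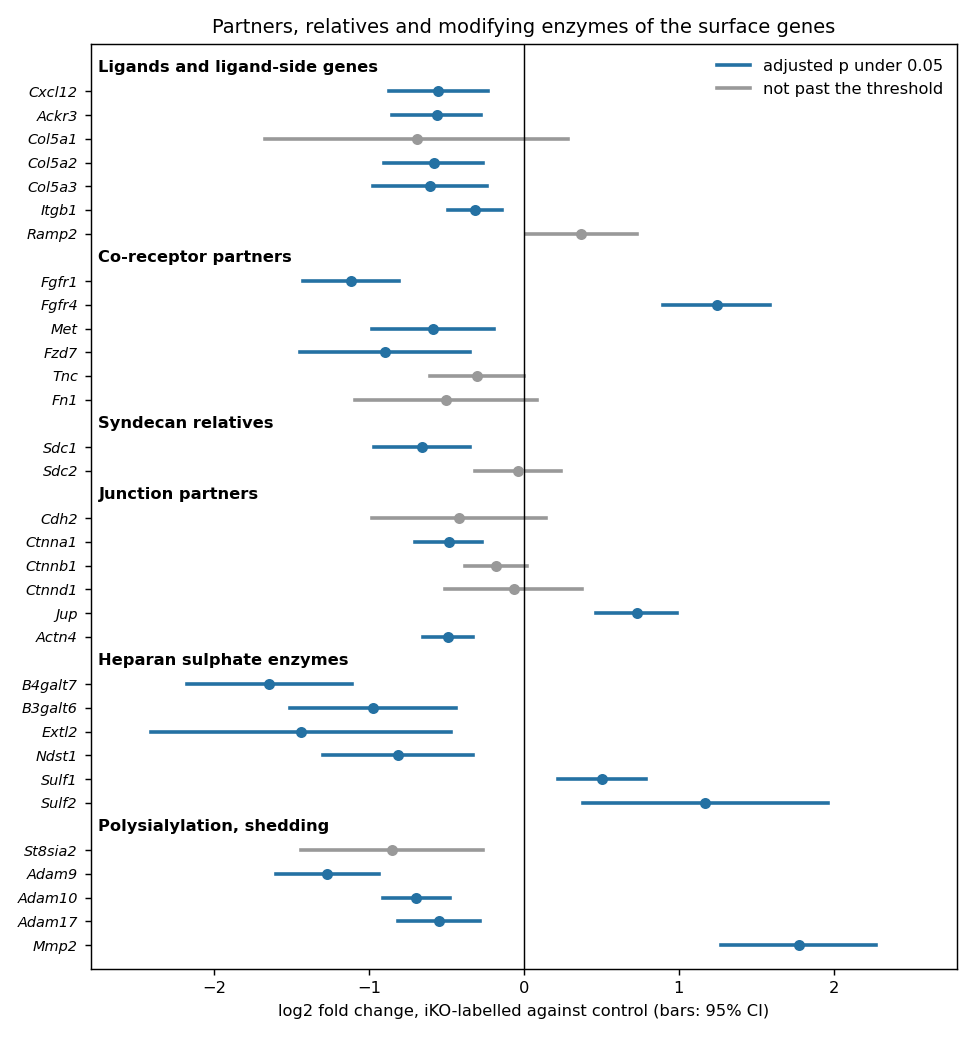
Log2 fold changes with 95% confidence intervals (iKO-labelled over control) of partner and modifying genes, grouped by role; blue genes passed the threshold and grey ones did not. Most of the blue points lie left of 0, and Fgfr4, Jup, Sulf1, Sulf2 and Mmp2 lie to the right.

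The whole syndecan family was read together, since its members carry the same kind of chain. Sdc4 made up 97.2% to 97.6% of the summed FPKM of Sdc1, Sdc2, Sdc3 and Sdc4 in the iKO-labelled libraries and 94.5% to 95.1% in the controls. Sdc1 had 23.6, 30.0 and 28.4 FPKM in the iKO-labelled libraries, against 45.8, 45.9 and 36.2 FPKM in the controls, without overlap (-0.66 ± 0.13, adjusted p = 0.0116). Sdc2 was at 28.9 FPKM in the iKO-labelled group and 29.4 FPKM in the controls (-0.04 ± 0.12, adjusted p = 0.862), and its sign turned under library totals, under a filter of 5 CPM, and when control 2 or iKO 3 was left out. The 4 genes thus comprised 1 that rose, 1 that fell and 2 that did not pass the test.

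**Figure D4:**
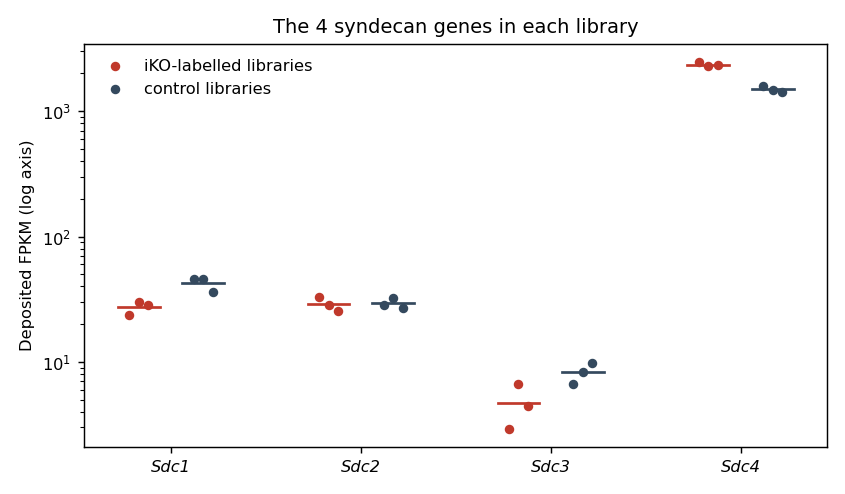
Deposited FPKM (log axis) of the 4 syndecan genes, 1 point per library and a bar at each group mean, with iKO-labelled libraries on the left of each pair. Sdc4 lies far above the others in every library, and is higher in the iKO-labelled group while Sdc1 is lower.

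Around Cdh15, 4 of 11 cytoplasmic partners of the cadherin and syndecans changed, 2 higher and 2 lower. Over all tested genes 8.15% were higher and 12.3% lower. Jup, plakoglobin, which can take the place of β-catenin at cadherins, had 19.4, 18.7 and 16.3 FPKM in the iKO-labelled libraries, against 10.6, 11.9 and 9.99 FPKM in the controls (0.73 ± 0.11, adjusted p = 0.00366). Ctnna1, α-catenin, which ties the cadherin complex to actin, fell by 0.49 ± 0.095 (adjusted p = 0.00963), and Actn4, an actin cross-linker that also binds Sdc4, by 0.49 ± 0.070 (adjusted p = 0.00247). β-catenin (Ctnnb1) stood at -0.18 ± 0.086 (adjusted p = 0.196). N-cadherin (Cdh2), with which Cdh15 shares its role at the fibre, was at 3.68 FPKM in the iKO-labelled group and 4.86 FPKM in the controls (-0.42 ± 0.24, adjusted p = 0.289). Of 18 tested relatives of the 9 genes none rose and 2 fell (20.4% of all tested genes were called): Sdc1 and Nrcam, a neural adhesion protein related to Ncam1 (-1.72 ± 0.21, adjusted p = 0.00134). Several of the relatives had few counts and large standard errors, so this count says little of the families.

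Other surface proteins of satellite cells did not share a direction. Of 16 tested, 3 rose and 4 fell (median 0.25), beside 8.15% higher and 12.3% lower over all tested genes. Cd44, the hyaluronan receptor, fell by 0.46 ± 0.086 (adjusted p = 0.00816), and Itga7, the laminin-binding integrin by which satellite cells are also sorted, by 0.68 ± 0.12 (adjusted p = 0.0059). Boc, a co-receptor of the immunoglobulin family that promotes myogenesis, rose by 0.69 ± 0.14 (adjusted p = 0.0121). Cd82, a tetraspanin, rose by 0.35 ± 0.085 (adjusted p = 0.0223), a call lost without control 1, control 3 or iKO 2 (highest adjusted p 0.066). Tenm4, a teneurin, rose by 0.91 ± 0.23 (adjusted p = 0.0296), called only without iKO 2 when a library was left out (highest adjusted p 0.0821). Hmmr, a hyaluronan-binding protein that also works at the mitotic spindle, fell by 2.49 ± 0.50 (adjusted p = 0.0105). Dag1, dystroglycan, fell by 0.46 ± 0.11 (adjusted p = 0.0194), a call lost without control 2, control 3, iKO 1 or iKO 3 (highest adjusted p 0.0681).

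For each of the 6 changed members, the genes most like it were sought among 8773 genes by Pearson's r of log2 CPM over the 6 libraries, which share the contrast of the groups. Chodl was closest to Itm2b (r = 0.998) and Airn (0.998), Sdc4 to Rsrp1 (0.999) and Fat1, an atypical cadherin (0.998), and Cdh15 to Add1, an adducin of the membrane skeleton (0.998), and Ncoa1 (0.997). Vcam1 was closest to Kansl3 (0.996) and Fcgrt, the neonatal Fc receptor (0.994), and Ncam1 to Sgo2a, a guardian of centromere cohesion (0.999), and Hdlbp (0.999). Calcr was closest to Kif13a, a kinesin (0.989), and Tpcn1, a cation channel of endosomes (0.977). Of the genes named as most like a member, Kansl3 (adjusted p = 0.239), Kif13a (0.0693) and Tpcn1 (0.0841) did not themselves pass the edgeR test. The number of genes with r above 0.95 was 720 for Ncam1, 333 for Sdc4, 328 for Chodl, 250 for Cdh15, 89 for Vcam1 and 19 for Calcr. Such numbers depend on how cleanly a member separates the groups and on how many genes changed in its direction. They therefore do not rank how widely a pattern was shared.

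The sorted cells carried the defining factors of the lineage; of 8 satellite cell and myoblast markers 2 rose (Pax7, Fgfr4) and 3 fell (Myf5, Des, Itga7). Pax7, the transcription factor of satellite cells, had 1425, 1396 and 1255 counts in the iKO-labelled libraries, against 308, 251 and 276 counts in the controls. Myod1 averaged 756 FPKM in the iKO-labelled group and 897 FPKM in the controls. Its groups did not overlap, but the difference of -0.27 ± 0.080 just missed the threshold (adjusted p = 0.0511). Of 54 markers of endothelial, leukocyte, fibro-adipogenic, pericyte and smooth muscle, Schwann and fibre cells, 53 were tested, none rose and 2 fell (3.77%, against 20.4% of all genes): Acta2, the smooth muscle actin (-2.24 ± 0.22, adjusted p = 5.3e-04), and Acta1, the skeletal actin (-1.84 ± 0.51, adjusted p = 0.0379). Many of these markers were low and had large standard errors, so the small share called does not show equal levels in the groups. The fibro-adipogenic markers summed to 1462 to 1720 CPM in the iKO-labelled libraries and 1410 to 1955 CPM in the controls, and the leukocyte markers to 144 to 336 CPM in the iKO-labelled libraries and 174 to 236 CPM in the controls, with overlap in both. The pericyte and smooth muscle list, largely through Acta2, summed to 201 to 306 CPM in the iKO-labelled libraries and 327 to 423 CPM in the controls, and the muscle fibre list to 16.8 to 25.4 CPM in the iKO-labelled libraries and 27.7 to 73.0 CPM in the controls. Both of these sums were lower in every iKO-labelled library, without overlap, and the median log2 fold change of the fibre list was -0.93. None of the markers was at 0 in all 6 libraries; the lowest was the Schwann cell gene S100b, with 3, 10 and 0 counts in the iKO-labelled libraries, against 3, 0 and 2 counts in the controls. Their part in the differences of the surface genes was not tested.

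**Figure D5:**
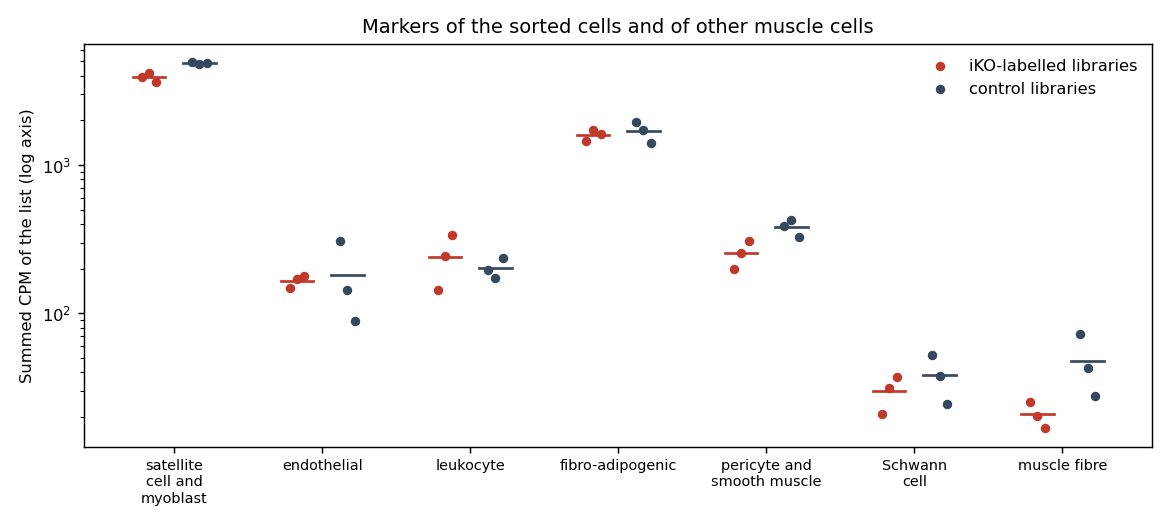
Summed CPM (log axis) of each marker list, 1 point per library and a bar at each group mean, iKO-labelled libraries left of controls. The markers of satellite cells and myoblasts sum to 3616 to 4197 CPM in the iKO-labelled libraries and 4763 to 4928 CPM in the controls, above every other list.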

How the data were processed

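RNA was measured in 6 libraries of sorted satellite cells, reverse-transcribed and amplified by Smart-Seq2, per the labels' protocols, a protocol known not to mark the strand. The authors deposited raw read counts per gene and FPKM for the same genes. Per the submitters' processing notes, the tools were STAR, Trim Galore, Subread, featureCounts and DESeq2, and the build mm10; no version is stated, nor the annotation, strand setting or handling of multi-mapping reads. The deposited FPKM follow median-of-ratios size factors: for the 11966 genes whose counts reached 20 throughout, the ratio of count to FPKM matched them to within 6.4e-15. Of 46078 rows, 551 had no gene name; they held 0.108% to 0.123% of a library's counts and were left out.

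Counts were analysed with edgeR 4.0.16 in R 4.3.3: filterByExpr (minimum count 10, minimum total 15), TMM scaling, and a quasi-likelihood fit with group as the only term over all 6 libraries. CPM use TMM-scaled library sizes. The standard error is the log2 fold change divided by the square root of F, and 95% intervals use the fit's degrees of freedom. Levels between genes are compared in FPKM. Alternatives were DESeq2 1.42.0, RLE factors, library totals, no count filter, at least 5 CPM in 3 libraries, limma 3.58.1 on log-transformed FPKM (pseudocount 1 or 0.1, genes averaging 1 FPKM or more; and pseudocount 1, unfiltered), the replicate number as a block, and each library left out. Positions are from GENCODE M21 (GRCm38) and promoter windows from RefSeq (GRCm38.p6).

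The members and lists were chosen with earlier results of these data known. Genes named are the 9 members, their direct ligands and enzymes, list genes past the threshold, the most abundant markers, Paxbp1 and Pax7, and the 2 genes most like each changed member (mean log2 CPM of at least 3, no predicted gene models). Acta1, Myod1 and the genes that missed the threshold among the partners were named beside these. Values of 2 called list genes are not reported here; they stay in all tests and counts.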

Additional observations from a re-analysis of the deposited data

How the results depend on the processing

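The sign of the estimate held for all 9 surface genes under all 15 alternatives. For Cd34 this does not establish a direction, since its estimate was 0.0087 without iKO 2. Chodl, Ncam1, Cdh15 and Sdc4 were called under each, and Cd34 and Cxcr4 under none. Calcr and Vcam1 were also lost with limma on unfiltered log2(FPKM + 1) (adjusted p = 0.138 and 0.0601), where 3 members were higher. Sdc3 was called with DESeq2, with no count filter, with limma on filtered log2(FPKM + 1) and log2(FPKM + 0.1), and with the replicate block, which gave 2 lower members each. With 1 library left out, 4 to 6 members were called, 3 to 5 higher and 1 to 2 lower, 2053 to 2816 of all genes (706 to 1159 higher), and 24 to 29 of the list genes, against 20 with limma on unfiltered values. The sign of Sdc2 turned with library totals (0.091), with the filter of 5 CPM (0.028), without control 2 (0.035) and without iKO 3 (0.038), its range with 1 library left out being -0.14 to 0.038, and that of St8sia4 without control 3 (-0.52), iKO 1 (-0.30) and iKO 2 (-0.10), its range being -0.52 to 1.15. Same-numbered libraries did not deviate together (correlations of -0.067, -0.0021 and -0.059 over genes), and the labels do not say that a number marks a pair; the replicate block called 2215 genes, 813 of them higher, and 31 of the list genes (6 higher, 25 lower), with Ackr3, Cd82, Col5a3, Dag1, Fzd7, Itgb1, Ptprz1, Sulf1, Sulf2 and Tenm4 among the 11 calls lost under it. Sulf2 and Tenm4 were also lost with both filtered limma fits, and Fzd7 with no count filter.

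Antisense genes share exon bases with Cd34 (148 bases), Vcam1 (61), Ncam1 (417) and Sdc3 (48 with Gm12970 and 415 with Gm26716). The counts of these antisense genes were at most 60 per library. With 3 libraries a group, the changes of Sdc3 (SE 0.29), Calcr (SE 0.27) and Cxcr4 (SE 0.21) are the least precisely known of the 9.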
